A study of Mus musculus with 2 samples.

Results

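The 8 genes described here, Nr4a1, Nr4a2, Nr4a3, Tox, Tox2, Egr2, Egr3 and Nfatc1, encode transcription factors that T cell receptor signalling turns on and that are known for their part in T cell exhaustion. They were chosen by gene symbol from the 32285 genes counted in the library, with no measured value in the rule. Earlier results of these data were known when they were chosen. Together the 8 genes gave 17836 unique molecular identifiers (UMIs, each standing for 1 captured RNA molecule) in 10406 cells. The cells came from melanomas grown by C57BL/6J mice and were T cells by label. 4 mice had received Lactobacillus reuteri (LR mice 1 to 4) and 4 had received PBS (PBS mice 6 to 9), and the labels give no dose, time or age. CD90.2-positive cells were enriched from each tumour, marked with a hashtag antibody of their own mouse and sorted as live CD8+ cells. The sorted cells of a condition were then pooled, and all were run on a lane of 10x 5′ single-cell chemistry, so handling of the pool after the sort and treatment cannot be told apart. The labels also call the cells CD3+ and the control mice untreated, and the hashtag names and protocol give PBS.

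The pathway runs from the T cell receptor through calcium and the phosphatase calcineurin, which lets NFAT proteins enter the nucleus. NFAT acting with AP-1 drives effector genes, whereas NFAT acting without enough AP-1 turns on genes of anergy and exhaustion. NR4A proteins are orphan nuclear receptors induced within minutes to hours of receptor signalling, TOX and TOX2 are high mobility group box factors that hold the exhausted chromatin state, and EGR2 and EGR3 are zinc finger factors that restrain the response of stimulated T cells. NFATc1 is the family member whose own gene is raised by NFAT during sustained stimulation.

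All 8 genes are annotated as protein coding, and in GRCm38 coordinates Nr4a1 lies at chr15:101254269-101274795, Nr4a2 at chr2:57106830-57124003 on the reverse strand and Nr4a3 at chr4:48045153-48086447. Tox lies at chr4:6686353-6991557 on the reverse strand, Tox2 at chr2:163203125-163324170, Egr2 at chr10:67535475-67542188 and Egr3 at chr14:70077203-70082614. Tox overlaps the antisense gene Gm11802.

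The promoters of the 3 NR4A genes are shown because these paralogues, which share a DNA-binding domain, differed in which cells carried their RNA. Capitals mark TGACG or its reverse complement CGTCA, the core of the cAMP response element, which CREB proteins bind. Bases are RefSeq's for GRCm38.p6, 5′ to 3′ on the strand of the gene, and end at the last base before the annotated start (Nr4a1, Nr4a2) or before the annotated exon that overlaps the window (Nr4a3). The Nr4a1 window lies inside the annotated gene and overlaps no exon.
Nr4a1, chr15:101266596-101266845, forward strand: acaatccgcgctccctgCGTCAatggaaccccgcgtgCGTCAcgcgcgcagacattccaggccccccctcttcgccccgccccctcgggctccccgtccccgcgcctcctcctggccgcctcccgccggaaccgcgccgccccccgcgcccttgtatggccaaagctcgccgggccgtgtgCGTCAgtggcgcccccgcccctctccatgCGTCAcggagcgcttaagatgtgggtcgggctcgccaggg
Nr4a2, chr2:57124004-57124253, reverse strand: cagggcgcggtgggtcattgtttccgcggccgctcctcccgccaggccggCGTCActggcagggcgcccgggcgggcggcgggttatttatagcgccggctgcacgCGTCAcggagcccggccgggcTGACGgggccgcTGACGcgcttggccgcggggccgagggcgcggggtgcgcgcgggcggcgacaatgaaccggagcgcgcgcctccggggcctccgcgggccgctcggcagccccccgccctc
Nr4a3, chr4:48045055-48045152, forward strand: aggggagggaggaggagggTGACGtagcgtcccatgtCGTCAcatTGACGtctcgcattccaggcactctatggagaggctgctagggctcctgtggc
The windows searched ran from 250 bases before to 50 bases after each start. TGACG, on either strand, occurred 4 times in the window of Nr4a1, 4 times in that of Nr4a2 and 4 times in that of Nr4a3, of which 3 lie in the 98 bases printed. At least 1 match was found in 20.8% of 32851 RefSeq promoter windows of that length, and 4 or more matches in 0.231%. The complete element TGACGTCA, which contains TGACG, was in none of the 3 windows and in 1.79% of all. The NFAT core GGAAA, in 61.3% of all windows, matched once in Nr4a2, and the NR4A monomer element AAAGGTCA, in 1.51%, matched none of the 3. The EGR site GCGTGGGCG, in 0.612%, and the AP-1 site TGANTCA, in 7.81%, matched none either. Of the 8 genes, 5 had a promoter in the RefSeq table, and Tox, Egr3 and Nfatc1 did not. A match describes these letters and no measured binding.

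Cells were classed by the UMIs of a few marker genes. CD8 cells (at least 1 UMI of Cd8a or Cd8b1 and none of Cd4; 6030 cells) were split by Pdcd1, which encodes the receptor PD-1, into 4197 Pdcd1-undetected cells (0 UMIs), 769 Pdcd1-low cells (1 to 2) and 1064 Pdcd1-high cells (3 or more). The Pdcd1-high cells were split again by Xcl1, a chemokine gene, into 144 cells with 3 or more Xcl1 UMIs and 920 with 0 to 2. CD4 cells (Cd4, no Cd8a, Cd8b1 or Foxp3; 1323) and Foxp3-positive cells (no Cd8a or Cd8b1; 497), which carry the regulatory T cell factor, were present although the sort was for CD8. The 5 separate classes held 7850 cells, 75.4% of those kept. Levels are UMI counts scaled to a total of 1000000 (CPM) of all cells of a class in a mouse, and means are given ± SD over the 8 mice. Between classes, each mouse was compared with itself.

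Each mouse gave between 479 and 2586 cells and between 2627575 and 9294975 UMIs, with a median of 3272.5 UMIs per cell. The classes differed in depth and in cycling: Pdcd1-high cells had a median of 7363 UMIs, and 42.8% had a UMI of Mki67 or Top2a, against 3416 UMIs and 8.67% in Pdcd1-undetected cells. Xcl1-rich Pdcd1-high cells had a median of 11754 UMIs. The main comparisons were repeated with every cell thinned to 2000 UMIs, with classes still set on the full counts. A deeper cell passes a UMI threshold more easily, so classes were also set after thinning, for the contrasts among the Pdcd1 classes only. The Xcl1 contrast and those with CD4 or Foxp3-positive cells were not repeated in that way. The 5 general T cell markers (Cd3d, Cd3e, Cd3g, Trac, Cd2) were detected in every class. Of 7 myeloid markers, summed over a class and mouse, the level lay between 109.6 and 634.1 CPM in Pdcd1-undetected and between 188.8 and 305.7 CPM in Pdcd1-high cells, where Csf1r and Adgre1 were at 0. A Foxp3 UMI was found in 2.12% of CD8 cells (median 3703 UMIs). Whether free RNA, doublets or expression in these cells gave those UMIs was not tested. P-values measure the spread between these mice.

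The NR4A genes separated by cell class. As means over mice, Nr4a2 gave the largest share of NR4A UMIs in the 3 Pdcd1 classes of CD8 cells and Nr4a1 in CD4 and Foxp3-positive cells. Nr4a3 had the smallest mean share in each of these 5 classes. Single mice departed from this order. In CD4 cells Nr4a2 was above Nr4a1 in LR mouse 1 and LR mouse 2. In Pdcd1-undetected cells of PBS mouse 7, Nr4a1 made up 50.1% and Nr4a2 35.9%. Nr4a3 was above Nr4a1 in some mice, as in Pdcd1-high cells of LR mouse 1 (12.9% against 9.6%). Over all cells kept, Nr4a2 gave 4523 UMIs, Nr4a1 2416 and Nr4a3 876. At least 1 UMI was found in 18.2%, 12.5% and 6.27% of cells, respectively.

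Nr4a2 RNA stood at 262.6 ± 43.6 CPM in Pdcd1-high CD8 cells, 163.8 ± 61.5 in Pdcd1-low cells and 65.6 ± 33.4 in Pdcd1-undetected cells. In Pdcd1-high cells Nr4a2 was at 257.7, 249.4, 203.8 and 306.3 CPM in LR mice 1 to 4 and at 228.2, 337.3, 281.1 and 237.1 CPM in PBS mice 6 to 9. In Pdcd1-undetected cells it was at 37.4, 72.7, 60.9 and 139.9 CPM and at 68.9, 30.1, 58.9 and 55.9 CPM. Every Pdcd1-high value lay above every Pdcd1-undetected value, and the highest of the latter was LR mouse 4. The log2 ratio was 2.0 ± 0.19 (SE; higher in 8 of 8 mice, adjusted p = 1.67e-07 by edgeR's quasi-likelihood test with the mouse as block and Benjamini-Hochberg adjustment over all genes tested). With all cells thinned to 2000 UMIs, a Nr4a2 UMI was found in 35.4% of Pdcd1-high, 20.7% of Pdcd1-low and 6.65% of Pdcd1-undetected cells, against 5.07% of CD4 cells. Before thinning, the shares of the CD8 classes were 66.8%, 34.6% and 11.8%.

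Tox, the high mobility group box factor needed for exhausted CD8 cells to persist, followed the same order. Tox was at 202.7 ± 28.0 CPM in Pdcd1-high, 146.9 ± 35.8 in Pdcd1-low and 61.2 ± 21.0 in Pdcd1-undetected CD8 cells. In Pdcd1-high cells the LR mice had 234.2, 197.4, 219.1 and 234.3 CPM and the PBS mice 177.0, 163.0, 220.1 and 176.8 CPM of Tox. In Pdcd1-undetected cells they had 44.4, 59.6, 71.0 and 107.8 CPM and 62.0, 51.5, 45.5 and 47.8 CPM. The classes did not overlap, and the difference was 1.65 ± 0.12 on the log2 scale (8 of 8 mice, adjusted p = 8.04e-09 by edgeR). A Tox UMI was found in 37.6% of thinned Pdcd1-high cells, 23.8% of Pdcd1-low and 9.41% of Pdcd1-undetected cells, where it had been 72.9%, 37.1% and 14.5% before thinning.

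Nfatc1, the NFAT gene with the most UMIs among the 8 (4951), had a smaller ratio between these classes. The gene lies at chr18:80606205-80713071 on the reverse strand and overlaps the antisense gene AC123818.1, and apart from Tox and Nfatc1 none of the 8 overlaps another annotated gene. Its level was 163.6 ± 25.5 CPM in Pdcd1-high, 142.3 ± 28.7 in Pdcd1-low and 96.0 ± 17.6 in Pdcd1-undetected CD8 cells, and the log2 ratio of the outer classes was 0.66 ± 0.10 (8 of 8 mice, adjusted p = 3.86e-05 by edgeR). Nfatc1 lay between 134.9 and 200.3 CPM in Pdcd1-high cells and between 68.1 and 117.1 CPM in Pdcd1-undetected cells, with no overlap. Nr4a3 was at 28.8 ± 7.8 and 14.9 ± 5.7 CPM, a log2 ratio of 0.92 ± 0.23 (8 of 8 mice, adjusted p = 0.0026), and here the ranges overlapped. With thinned cells Nr4a3 was too low to be tested.

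Nr4a1 went the other way by a small amount that depended on the analysis. It was at 34.6 ± 9.1 CPM in Pdcd1-high and 43.4 ± 11 CPM in Pdcd1-undetected CD8 cells, a log2 ratio of -0.39 ± 0.15 (lower in 5 of 8 mice, adjusted p = 0.0321 by edgeR). The call was lost with thinned cells (-0.09, adjusted p = 0.774), with cycling cells left out (-0.06, adjusted p = 0.761), with DESeq2 (-0.41, adjusted p = 0.0668) and when LR mouse 2, LR mouse 3, PBS mouse 6 or PBS mouse 7 was left out of the edgeR fit, where the log2 ratio ranged from -0.48 to -0.25 over the 8 fits. In thinned cells a Nr4a1 UMI was found in 6.13% of Pdcd1-high and 5.22% of Pdcd1-undetected cells.

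In this contrast 6 of the 8 genes passed the filter on low counts, of which 4 were called higher and 1 lower in Pdcd1-high cells. Among all 8140 genes tested, 30.7% were called higher and 32.4% lower, and the median log2 ratio was 0.79 over the 6 genes and -0.02 over all. Egr2 did not pass the test (log2 ratio -0.15 ± 0.29, adjusted p = 0.684 by edgeR). The remaining 2 were too low to be tested: Tox2 gave 57 UMIs in Pdcd1-high and 6 in Pdcd1-undetected cells, and Egr3 gave 4 and 21. With no filter on low counts Tox2, which acts with TOX in exhausted cells, was higher in 8 of 8 mice (log2 ratio 3.52, adjusted p = 1.83e-08), and Egr3 did not pass (adjusted p = 0.0905).

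**Figure D1:**
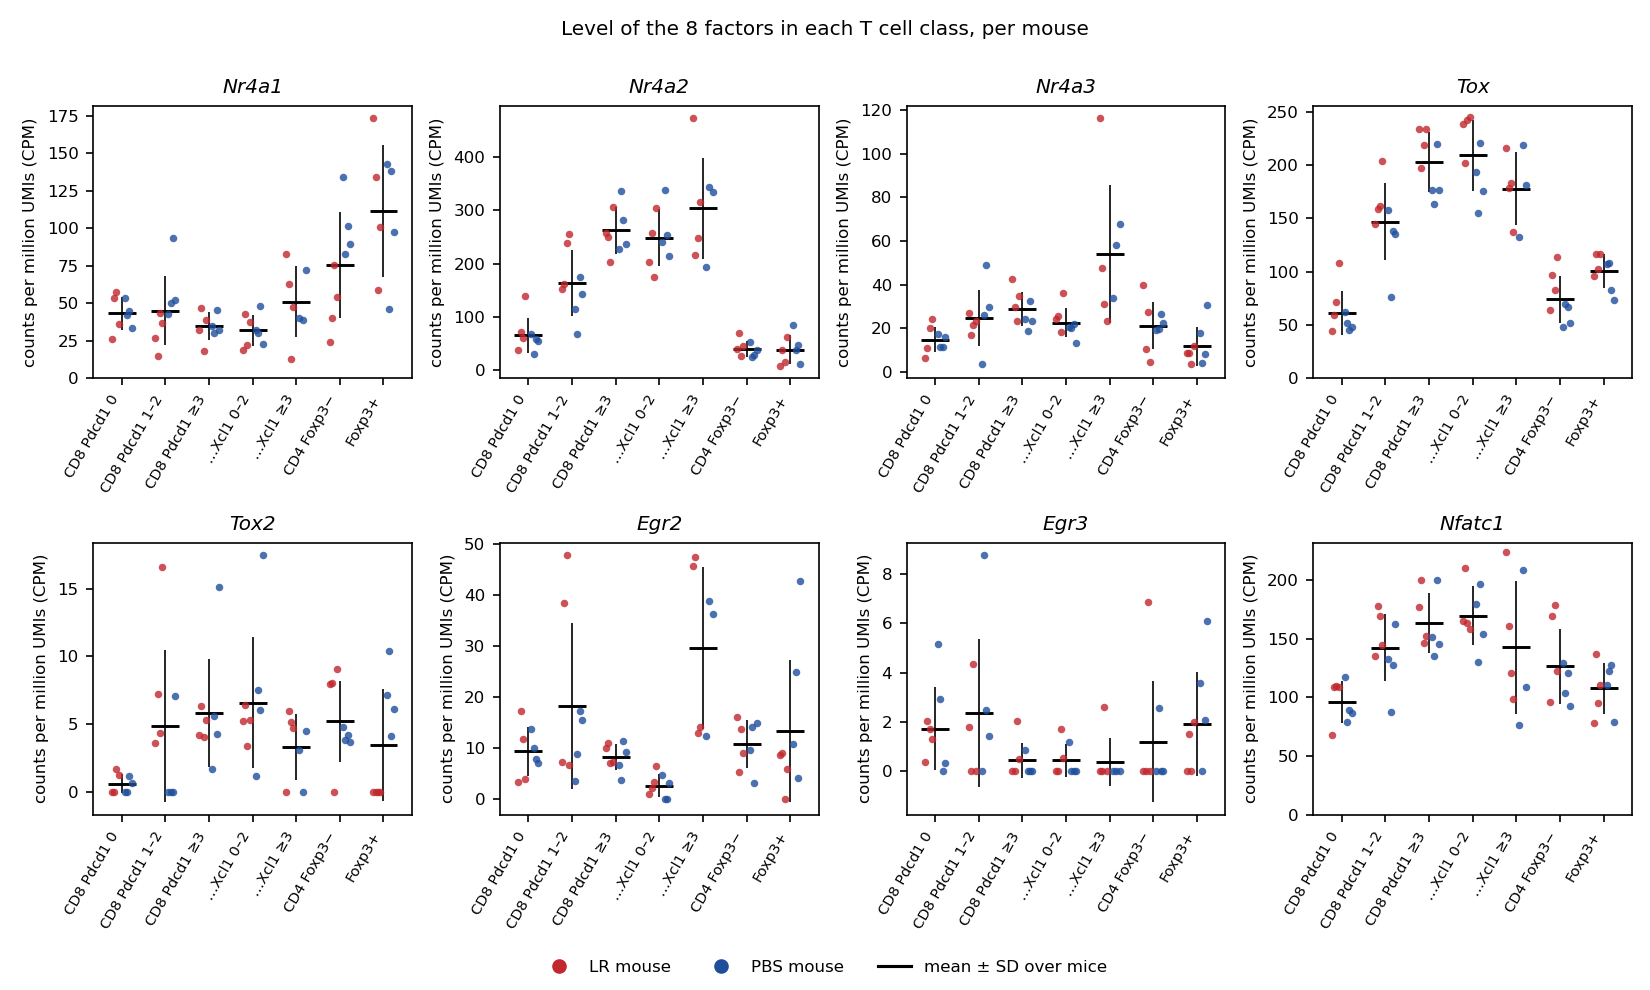
Level of each gene (CPM, y axis, own scale per panel) in the classes of cells (x axis), with a point for each mouse coloured by treatment and the mean ± SD over mice in black. With classes set on full counts, the means of Nr4a2 and Tox increase with Pdcd1 UMIs in CD8 cells. The mean of Nr4a1 is highest in Foxp3-positive cells, and Egr2 stands out in the Xcl1-rich class.

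In mean level, Pdcd1-low cells lay between the outer classes for Nr4a2, Nr4a3, Tox, Tox2 and Nfatc1. They lay above both outer classes for Nr4a1, Egr2 and Egr3. Against Pdcd1-undetected cells, 4 of the 5 genes tested were called higher and none lower, where 16.9% of all 6366 genes were called higher and 16.4% lower. Nr4a2 was higher by 1.24 ± 0.13 (adjusted p = 3.21e-07 by edgeR), Tox by 1.17 ± 0.11 (adjusted p = 1.26e-07) and Nfatc1 by 0.47 ± 0.10 (adjusted p = 0.000847) on the log2 scale. Nr4a3 was higher by 0.80 ± 0.28 in 6 of 8 mice (adjusted p = 0.0326), a call that was lost with DESeq2 (adjusted p = 0.125) and without LR mouse 1, PBS mouse 7, PBS mouse 8 or PBS mouse 9, with log2 ratios from 0.57 to 0.97 over the 8 fits. Nr4a1 did not differ by the test (0.01, adjusted p = 0.984). Tox2, Egr2 and Egr3 were below the filter, with 21 against 6, 57 against 120 and 7 against 21 UMIs.

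Between Pdcd1-high and Pdcd1-low cells, 2 of 5 genes tested were called higher and 0 lower, against 13.7% and 14.6% of 6605 genes. Nr4a2 was higher by 0.68 ± 0.15 (7 of 8 mice, adjusted p = 0.00264 by edgeR) and Tox by 0.45 ± 0.09 (8 of 8 mice, adjusted p = 0.00133). When the classes themselves were set after thinning, an analysis added once the depth gap had been seen, neither was called (Nr4a2 0.32, adjusted p = 0.315; Tox 0.19, adjusted p = 0.743). Nr4a1 passed only without LR mouse 2 (-0.51, adjusted p = 0.0473). Nfatc1 was at 0.18 (adjusted p = 0.172), and passed with cells thinned after classing (0.51, adjusted p = 0.0112). The step from undetected to high kept its calls for Nr4a2 (1.80), Tox (1.42) and Nfatc1 (1.06) in that analysis.

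**Figure D2:**
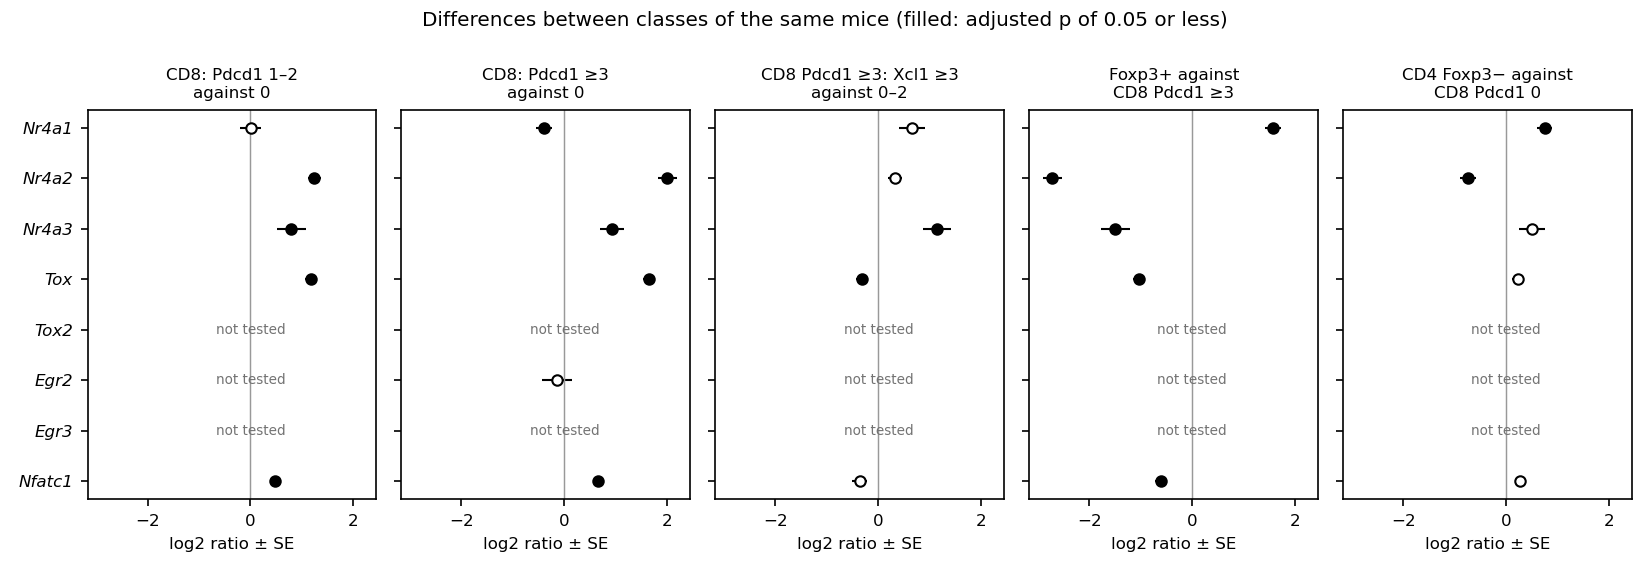
Log2 ratio between 2 classes (x axis) of each gene tested (y axis), in panels for 5 of the contrasts, with the standard error as a bar and filled points for adjusted p of at most 0.05. Nr4a2 and Tox sit at 2.0 and 1.65 for Pdcd1-high against Pdcd1-undetected CD8 cells, and at -2.72 and -1.04 for Foxp3-positive against Pdcd1-high cells.

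Shares within the NR4A family compare the 3 genes in the same cells. Of all NR4A UMIs in a mouse, Nr4a2 made up 80.5% ± 3.5 in Pdcd1-high and 51.1% ± 9.6 in Pdcd1-undetected CD8 cells, and Nr4a1 made up 10.6% ± 2.4 and 36.9% ± 9.2 (SD, n = 8 mice; 8 of 8 mice for each; adjusted p = 0.0254 by a two-sided exact sign-flip permutation test, adjusted over 13 shares and contrasts; 0.0078 is the smallest unadjusted p that 8 mice allow). Foxp3-positive cells had the reverse, 68.7% Nr4a1 and 24.0% Nr4a2, and differed from Pdcd1-high cells for both genes with the same adjusted exact p of 0.0254. Nr4a3 made up 8.91% in Pdcd1-high, 12% in Pdcd1-undetected and 7.37% in Foxp3-positive cells, and its shares did not pass the exact test in either contrast (adjusted p = 0.160 and 0.601).

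**Figure D3:**
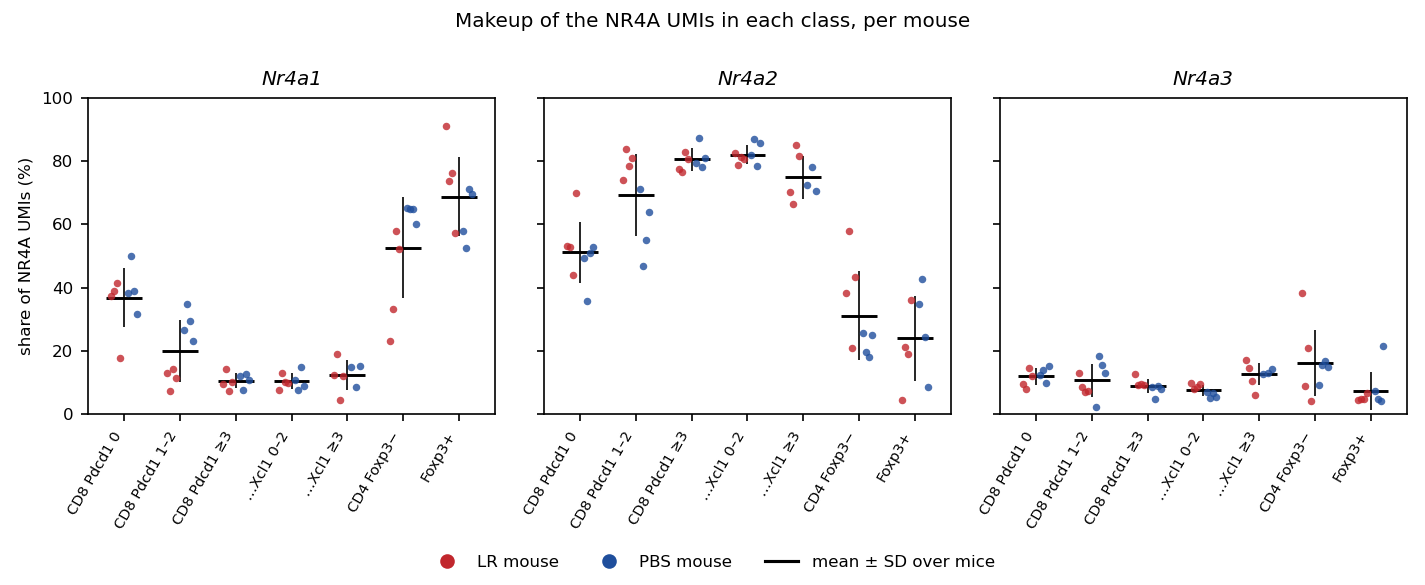
Share of NR4A UMIs (percent, y axis) that came from Nr4a1, Nr4a2 and Nr4a3 in each class (x axis), with a point for each mouse and the mean ± SD over mice in black. Nr4a2 makes up 80.5% on average in Pdcd1-high CD8 cells and 24.0% in Foxp3-positive cells.

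Within the Pdcd1-high class, Nr4a3 was called higher in Xcl1-rich cells, and Egr2, on few UMIs, was higher in every mouse compared. PBS mouse 7 had 7 such cells and was left out, which left 7 mice. Egr2, an early target of NFAT that restrains T cell activation, was at 45.7, 47.6, 12.9 and 14.1 CPM in the Xcl1-rich cells of LR mice 1 to 4 and at 12.3, 38.9 and 36.2 CPM in PBS mice 6, 8 and 9. In the remaining Pdcd1-high cells the same mice had 1.1, 2.1, 3.4 and 6.4 CPM and 4.6, 0.0 and 3.1 CPM of Egr2. No value overlapped, although these were only 55 against 25 UMIs and the gene did not pass the filter on low counts. With no filter, the log2 ratio of Egr2 was 3.07 ± 0.39 (higher in 7 of 7 mice, adjusted p = 2.71e-13 by edgeR).

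Nr4a3 was at 116.2, 47.6, 30.9 and 23.6 CPM in Xcl1-rich cells of the LR mice and at 33.8, 58.3 and 67.9 CPM in those of PBS mice 6, 8 and 9. In the remaining Pdcd1-high cells Nr4a3 was at 24.2, 25.8, 18.5 and 36.4 CPM and at 20.8, 22.1 and 13.4 CPM. LR mouse 4 was the exception to the direction. The log2 ratio was 1.15 ± 0.27 (6 of 7 mice, adjusted p = 0.00219 by edgeR), and it passed in every fit that left out a mouse, with log2 ratios from 0.89 to 1.42. As a share of NR4A UMIs, Nr4a3 made up 12.7% in Xcl1-rich and 7.87% in the remaining cells (higher in 6 of 7 mice). That difference did not pass the exact sign-flip test (adjusted p = 0.102). Thinned, Nr4a3 was too low for the edgeR test, and a Nr4a3 UMI was found in 13.3% of Xcl1-rich and 4.29% of the remaining cells of all 8 mice, and an Egr2 UMI in 6.99% and 0.68%.

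Of the 5 genes tested in this contrast, 1 was called higher and 1 lower, against 16.8% and 16.3% of 5419 genes. Tox was the lower one, at 178.0 against 217.0 CPM over the 7 mice (log2 ratio -0.31 ± 0.12, 6 of 7 mice, adjusted p = 0.0453 by edgeR). That call was lost with DESeq2 (adjusted p = 0.141), with thinned cells (-0.16, adjusted p = 0.634) and in 5 of 7 fits that left out a mouse (LR mouse 1, 2, 3 or 4 or PBS mouse 6; log2 ratios from -0.36 to -0.22 over the 7 fits). Nr4a1 (0.66, adjusted p = 0.0508), Nr4a2 (0.32, adjusted p = 0.0815) and Nfatc1 (-0.36, adjusted p = 0.0649) did not pass, and with no filter Nr4a1 (0.63, adjusted p = 0.0273) and Nfatc1 (-0.39, adjusted p = 0.0254) did. Tox2 (7 against 47 UMIs) and Egr3 (1 against 3) were below the filter. Across all CD8 cells, the 222 with 3 or more Xcl1 UMIs included 144 of the Pdcd1-high class.

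In Foxp3-positive cells Nr4a1, a nuclear receptor whose level follows the strength of receptor signalling, was at 111.5 ± 43.9 CPM, between 45.8 and 173.6, against 34.6 ± 9.1 CPM in Pdcd1-high CD8 cells, between 18.3 and 46.8. The ranges met at PBS mouse 7, which had the lowest value of the Foxp3-positive class. All 5 genes tested in this contrast were called, 1 higher and 4 lower, where 17.2% of 6497 genes were called higher and 16.4% lower. Nr4a1 was higher by 1.56 ± 0.15 (8 of 8 mice, adjusted p = 1.72e-07 by edgeR). Nr4a2 fell by 2.72 on the log2 scale (SE 0.19, 8 of 8 mice, adjusted p = 1.45e-09), Nr4a3 by 1.5 (SE 0.28, 7 of 8, adjusted p = 0.000336), Tox by 1.04 (SE 0.11, 8 of 8, adjusted p = 4.49e-07) and Nfatc1 by 0.61 (SE 0.10, adjusted p = 0.000137). These 5 calls held in every fit that left out a mouse and with DESeq2. Tox2 (10 against 57 UMIs), Egr2 (34 against 82) and Egr3 (5 against 4) were below the filter.

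Against CD4 cells without Foxp3, Tox was the gene of the 8 called in Foxp3-positive cells. It was at 100.3 ± 15.7 and 74.0 ± 22.2 CPM (log2 ratio 0.36 ± 0.13, 8 of 8 mice, adjusted p = 0.0305 by edgeR), 1 call among the 4 genes tested. Of all 4154 genes, 26.1% were called higher and 24.0% lower. The Tox call was lost with DESeq2 (adjusted p = 0.134) and in every fit that left out a mouse other than LR mouse 4, with log2 ratios from 0.27 to 0.40, and it passed with thinned cells (0.59, adjusted p = 0.0196). Nr4a1 (0.36, adjusted p = 0.238; 0.61, adjusted p = 0.0339 without PBS mouse 7), Nr4a2 (0.02, adjusted p = 0.957) and Nfatc1 (-0.22, adjusted p = 0.176) did not pass. LR mouse 1 had 14 Foxp3-positive cells. Nr4a3 (30 against 80 UMIs; -0.92, adjusted p = 0.0418 with no filter), Tox2 (10 against 18), Egr2 (34 against 39) and Egr3 (5 against 5) were below the filter.

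CD4 cells differed from Pdcd1-undetected CD8 cells in the balance of Nr4a1 and Nr4a2. Nr4a1 was at 75.2 ± 35.3 against 43.4 ± 11 CPM (log2 ratio 0.75 ± 0.15, 6 of 8 mice, adjusted p = 0.00036 by edgeR), and Nr4a2 at 40.8 ± 15.1 against 65.6 ± 33.4 CPM (-0.75 ± 0.15, lower in 7 of 8 mice, adjusted p = 0.000682). Of the 5 genes tested 1 was called higher and 1 lower, against 7.01% and 7.13% of 6674 genes. Nr4a3 (0.50), Tox (0.23) and Nfatc1 (0.26) did not pass, with adjusted p-values of 0.233, 0.209 and 0.074. Tox2 gave 18 UMIs in CD4 and 6 in Pdcd1-undetected CD8 cells and passed only with no filter (log2 ratio 2.97, adjusted p = 0.00574). Egr2 gave 39 and 120 UMIs, and Egr3 gave 5 and 21.

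Ordered by mean level over the 5 separate classes, Nr4a1 ran from Foxp3-positive (111.5 CPM) through CD4 (75.2), Pdcd1-low (45.0) and Pdcd1-undetected (43.4) to Pdcd1-high CD8 cells (34.6). The steps from Foxp3-positive to CD4 and from Pdcd1-low to Pdcd1-undetected did not exceed the spread between mice. Nr4a2 ran from Pdcd1-high (262.6) through Pdcd1-low (163.8) and Pdcd1-undetected CD8 (65.6) to CD4 (40.8) and Foxp3-positive cells (38.6), where the last pair did not differ beyond its spread. Tox ran from Pdcd1-high (202.7) through Pdcd1-low (146.9), Foxp3-positive (100.3) and CD4 cells (74.0) to Pdcd1-undetected CD8 cells (61.2), where the last pair did not differ beyond its spread either. Nfatc1 stayed within a narrower range, from 163.6 CPM in Pdcd1-high through 142.3 in Pdcd1-low, 126.6 in CD4 and 107.8 in Foxp3-positive to 96.0 in Pdcd1-undetected cells. Pdcd1-high and Pdcd1-low cells, and CD4 and Foxp3-positive cells, did not differ in Nfatc1 beyond their spread. Nr4a3 ran from 28.8 in Pdcd1-high through 24.7 in Pdcd1-low, 21.3 in CD4 and 14.9 in Pdcd1-undetected to 11.8 in Foxp3-positive cells. Pdcd1-high and Pdcd1-low cells did not differ in Nr4a3 beyond their spread (log2 ratio 0.24, adjusted p = 0.459 by edgeR). Neither did CD4 and Pdcd1-undetected cells. The step from Pdcd1-low to Pdcd1-high cells was not called for Nr4a2 or Tox when classes were set after thinning. For each gene, neighbouring classes that no contrast above paired were not tested against each other. Egr2 was at 18.2 CPM in Pdcd1-low, 13.3 in Foxp3-positive, 10.7 in CD4, 9.4 in Pdcd1-undetected and 8.3 in Pdcd1-high cells, with an SD of 16.3 in the Pdcd1-low class.

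More of the 8 genes were detected per cell as Pdcd1 increased. These counts rise with the detection of single genes and do not measure whether genes share cells beyond that. At 2000 UMIs per cell, a mean of 1.18 of the 8 genes was detected per Pdcd1-high cell, 0.780 per Pdcd1-low and 0.389 per Pdcd1-undetected cell. The mean was 0.518 in CD4 and 0.649 in Foxp3-positive cells. At least 3 of the 8 were detected in 10.4% of Pdcd1-high, 5.95% of Pdcd1-low and 1.08% of Pdcd1-undetected cells, and in 18.2% of the Xcl1-rich Pdcd1-high cells.

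Across the 40 sums of 5 classes and 8 mice, which share mice, classes and depth, Tox and Nfatc1 had a Pearson r of 0.75, Nr4a2 and Tox 0.73, Nr4a2 and Nfatc1 0.69, and Nr4a1 and Nr4a2 -0.54, on log2(CPM + 1). Among 9014 other genes, those most like Nr4a2 were Gpd2 (0.93), Adgrg1 (0.88) and Tcrg-C2 (0.86), and those most like Tox were Arsb (0.89), Rgs16 (0.89) and Lag3 (0.88), the last an inhibitory receptor. Ccr4 (0.77), Ass1 (0.77) and Rap1b (0.76) were most like Nr4a1. Bhlhe40 (0.80), Stk39 (0.80) and Sub1 (0.78) were most like Nfatc1, and Atp10a (0.69), Slc16a11 (0.64) and Dnmt3b (0.63) most like Nr4a3. For the lower genes the highest values were 0.68 for Egr2 with Xpo1, 0.66 for Tox2 with Gpr162 and 0.56 for Egr3 with Shisa5.

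Genes of the same pathway were read beside these 8. Of 14 tested genes of calcium, calcineurin and NFAT signalling, 2 were higher and 7 lower in Pdcd1-high than in Pdcd1-undetected CD8 cells (median log2 ratio -0.24). Stim1, the calcium sensor of the endoplasmic reticulum, was at 31.2 against 81.5 CPM (-1.51 ± 0.11, adjusted p = 9.43e-09 by edgeR). The channel gene Orai2 (-1.46) and Nfatc3 (-0.80) were lower as well. Of 5 tested relatives and corepressors 2 were higher and 2 lower: Egr1 was at 61.8 against 112.9 CPM (-0.98 ± 0.15, adjusted p = 4.17e-05), while Nab2, whose product represses EGR factors, was higher by 0.47 and the high mobility group gene Hmgb1 by 0.82.

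Of 14 tested receptor-induced and anergy genes, 6 were higher and 5 lower (median 0.20), with Rgs16 (3.56) and Tnfrsf9 (3.08) among the higher and Dgka, a brake on diacylglycerol signalling, among the lower (-2.02). All 9 tested inhibitory receptor genes were higher, Havcr2 by 3.40 and Lag3 by 3.27 (median 2.37), and all 10 progenitor and quiescence genes were lower, among them Klf2 (log2 ratio -4.89; median -3.85). Of 8 effector fate factors 6 were higher and 1 lower, with Bhlhe40 at 2.24. Immediate early genes, a list that also holds heat shock genes of tissue dissociation, fell: 12 of 15 were lower and 1 higher (median -1.26), Fos at 103.4 against 480.5 CPM (-2.36) and Jun at 100.4 against 468.9 CPM (-2.35). Their summed level was 7452 CPM in Pdcd1-undetected, 5492 in Pdcd1-low and 4543 in Pdcd1-high cells.

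The same lists were counted in the other contrasts. In Xcl1-rich against the remaining Pdcd1-high cells, 1 calcium and NFAT gene was higher and 6 lower of 12 (Ppp3cc, a calcineurin subunit, -1.01), 2 inhibitory receptor genes were higher and 6 lower of 9 (Cd200r1 -1.86, Entpd1 -1.71), and 0 effector fate factors were higher and 5 lower of 7 (Id2 -1.02). Of 11 receptor-induced and anergy genes 3 were higher (Myc 0.77) and 2 lower (Dgka -0.65, Cblb -0.64), and of 6 progenitor and quiescence genes 2 were higher (Ccr7 1.59) and 1 lower. Of 14 immediate early genes 4 were higher (Ier3 1.4, Hsp90aa1 0.91) and 5 lower (Dnajb1 -0.48, Jund -0.27), with a median of -0.14. In Foxp3-positive against Pdcd1-high CD8 cells, 7 of 14 immediate early genes were higher and 1 lower (median 0.27; Zfp36 1.74, Fos 1.53), Nfatc2 was higher by 1.25 ± 0.22 (adjusted p = 0.000197 by edgeR) and Eomes lower by 5.58 (log2 ratio -5.58). In Foxp3-positive against CD4 cells, 8 of 14 calcium and NFAT genes were lower and 0 higher (median -0.48; Orai2 -1.64) and 9 of 13 immediate early genes were lower and 2 higher (median -1.20). In CD4 against Pdcd1-undetected CD8 cells, 8 of 15 immediate early genes were higher and 1 lower (median 0.36), and Nr4a1 was higher as well. In Foxp3-positive against CD4 cells, where most immediate early genes were lower, the log2 ratio of Nr4a1 was 0.36 (adjusted p = 0.238 by edgeR). Whether handling of the tissue had a part in the immediate early and Nr4a1 levels was not tested.

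LR and PBS mice were compared within each class, with the mouse as the replicate. No gene of the 8 was called by edgeR in all CD8 cells (0 of 7 tested), in Pdcd1-undetected (0 of 6), Pdcd1-low (0 of 5) and Pdcd1-high CD8 cells (0 of 6), in CD4 cells (0 of 3) or in Foxp3-positive cells (0 of 4). The background was as sparse. Of all genes tested, 0.0% were called in all CD8 cells (9945 genes), 0.0% in Pdcd1-undetected (8269), 0.0% in Pdcd1-low (5440), 0.0124% in Pdcd1-high (1 of 8096, Gzmb), 0.0% in CD4 (3793) and 0.0% in Foxp3-positive cells (5176). Unadjusted p-values of at most 0.05 numbered 741, 416, 337, 418, 184 and 190 in that order, and DESeq2 called 3, 0, 0, 1, 0 and 0 genes.

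Tox was nominally higher in LR mice. In all CD8 cells it was at 107.7, 148.8, 163.1 and 200.6 CPM in the LR mice and at 141.8, 65.1, 103.7 and 91.0 CPM in the PBS mice, a log2 difference of 0.61 ± 0.22 (adjusted p = 0.617 by edgeR). All 4 LR mice lay above the PBS mean of 100.4 CPM, and the groups overlapped through PBS mouse 6. The Tox difference was 0.40 ± 0.21 in Pdcd1-undetected (adjusted p = 0.93), 0.39 in Pdcd1-low (adjusted p = 0.776) and 0.26 ± 0.12 in Pdcd1-high cells (adjusted p = 0.936), where the mean was 221.3 in LR and 184.2 CPM in PBS mice. It was 0.52 ± 0.22 in CD4 (adjusted p = 0.982) and 0.23 in Foxp3-positive cells (adjusted p = 1.0). A mouse gave 43 to 228 Pdcd1-high cells of 292 to 1266 CD8 cells, so the value over all CD8 cells mixes level and composition.

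Nr4a1 was nominally lower in LR mice in 2 classes. In CD4 cells Nr4a1 was at 24.0, 40.3, 75.6 and 54.3 CPM in LR mice 1 to 4 and at 134.2, 82.8, 101.5 and 89.2 CPM in PBS mice 6 to 9. The groups did not overlap, as was the case for 2.69% of the genes tested in this class, and the log2 difference was -1.05 ± 0.26 (adjusted p = 0.763 by edgeR). These levels rest on 3, 15, 11 and 12 Nr4a1 UMIs in the LR and 28, 129, 96 and 24 in the PBS mice. In Pdcd1-low CD8 cells Nr4a1 was at 27.0, 14.4, 43.5 and 36.5 CPM against 43.0, 49.8, 93.5 and 52.2 CPM, a difference of -1.04 ± 0.32 (adjusted p = 0.588). Both differences were called when no filter on low counts was used (adjusted p = 0.0194 in CD4 and 0.0173 in Pdcd1-low cells by edgeR). The share of all genes called in those fits is not given here, so these calls have no background beside them. In Pdcd1-high cells the means were 33.9 in LR and 35.4 CPM in PBS mice. Without any 1 mouse, the CD4 difference ranged from -1.25 to -0.88. The summed immediate early level in CD4 cells was 11723 ± 501 CPM in LR and 10859 ± 1306 CPM in PBS mice, with overlap. In Pdcd1-low cells that sum was lower in LR mice, as Nr4a1 was, at 5161 ± 440 CPM (highest 5559) against 5823 ± 168 CPM (lowest 5634). The summed level of 4 cycling markers there, none of them at 0, was 386 to 518 CPM in LR and 187 to 299 CPM in PBS mice. LR and PBS mice did not overlap in either sum. Of the 5440 single genes tested in Pdcd1-low cells, 3.38% had no overlap, but a share for sums over several genes is not given here. Neither sum was tested, nor was the part of either sum in the Nr4a1 difference.

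Nr4a2 was at 202.4 CPM in LR and 125.2 CPM in PBS mice in Pdcd1-low cells (log2 difference 0.64 ± 0.24, adjusted p = 0.679 by edgeR) and at 254.3 and 270.9 CPM in Pdcd1-high cells (-0.08 ± 0.15, adjusted p = 0.975). A test of whether the treatment difference itself changed between Pdcd1-undetected and Pdcd1-high CD8 cells gave -0.56 ± 0.34 for Nr4a2 (adjusted p = 0.851), and called 0 of the 6 genes tested and 0.0% of 8890 genes. At an unadjusted p of at most 0.05 it had 569 genes, and DESeq2 called 0.

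Tox2 in Foxp3-positive cells was the other gene without overlap. It gave 0 UMIs in every LR mouse and 4.1 to 10.4 CPM in the PBS mice, 10 UMIs in all, where 2.26% of the genes tested in the class had no overlap. With 1562525 UMIs in the LR cells, a count of 0 allows up to 1.92 CPM (3 counts over the group, counting error only), against 7.10 CPM over the PBS cells. Tox2 did not pass the filter, so it was not among the genes behind the 2.26%, and that share is of genes with more counts. With no filter its adjusted p was 0.171 by edgeR. Nr4a2, Nr4a3, Tox, Egr2, Egr3 and Nfatc1 had overlapping LR and PBS values in each of the 6 classes compared.

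**Figure D4:**
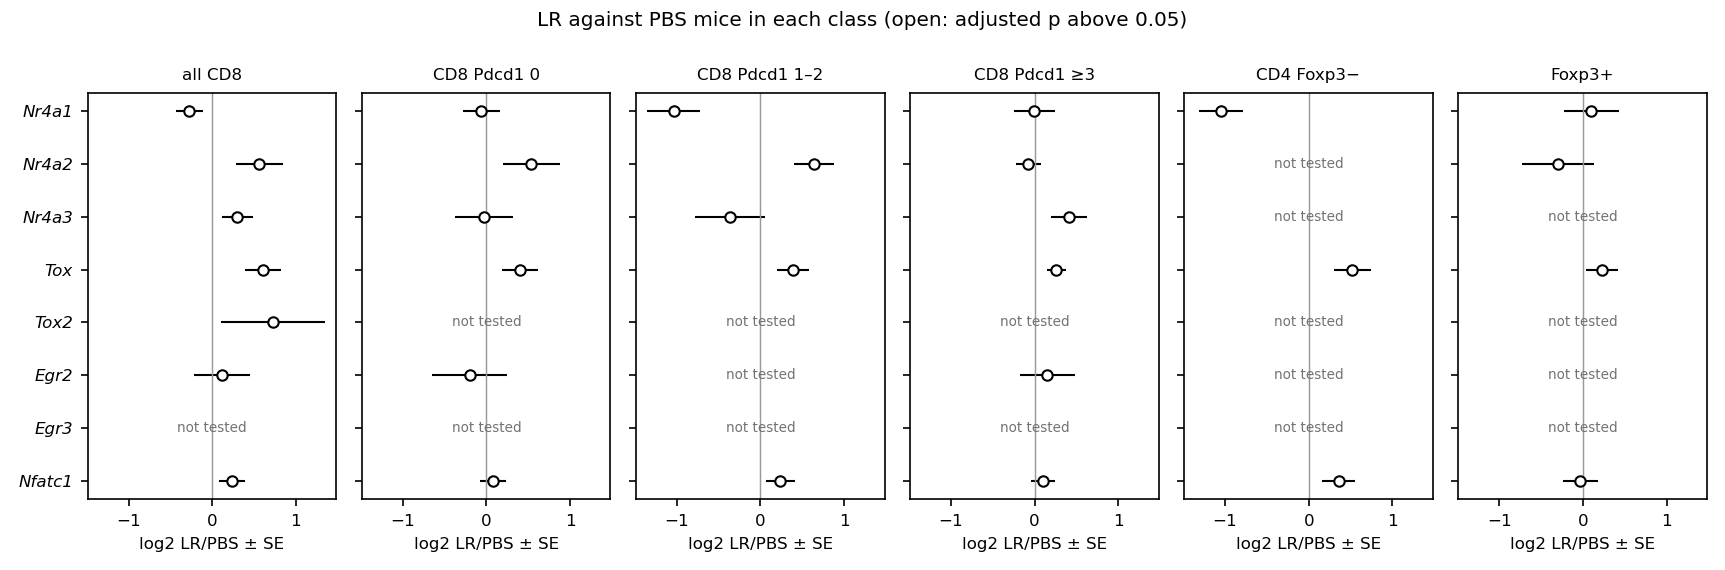
Log2 difference of LR and PBS mice (x axis) for each of the 8 genes (y axis), 1 panel per class, with the standard error as a bar and open points for adjusted p above 0.05. Every point is open, with Nr4a1 at -1.04 in Pdcd1-low CD8 and -1.05 in CD4 cells, and Tox lies above 0 in all 6 panels.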

How the data were processed

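A pooled 10x 5′ v2 library of tumour T cells from 8 mice was analysed from the deposited UMI counts per gene and hashtag counts per cell, not normalised per the file headers and values. Reads had been processed with Cell Ranger 4.0.0 on GRCm38, per the submitters' processing notes. Of 16969 barcodes, 14474 passed limits of 500 genes (lowest) and 10% mitochondrial UMIs (highest). Of these, 11225 carried 1 hashtag, and 2570 with several and 679 with none were left out. Scrublet (scanpy 1.11.5, expected rate 0.1) marked 13.6% as doublets, and 10406 cells were kept. An antibody named for LR mouse 5 was not used here.

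Counts were summed per mouse and class with at least 10 cells and tested with edgeR 4.0.16 (quasi-likelihood, TMM) on all genes passing its filter, with Benjamini-Hochberg adjustment at 0.05. The mouse was the block between classes, since both classes came from the same animals. DESeq2 1.42.0, library totals, no filter, thinning to 2000 UMIs, other thresholds and leaving out each mouse were alternatives. For every fit with no filter, the share of all genes called is not given here. Scripts were tested on simulated data. Shares were compared with an exact sign-flip test. Depth was 2627575 to 9294975 UMIs per mouse, and counts of few UMIs carry large counting error.

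Named genes were the 8, the genes that define classes, up to 4 per gene list with the largest change among those called and moving the same way in every mouse, and the 3 most correlated with each of the 8. Gzmb was named after its value was seen. A few genes that the rule names are not reported here. The genes, lists and tests were chosen with earlier results of these data known.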

Additional observations from a re-analysis of the deposited data

Results flagged for a closer look

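In Pdcd1-undetected CD8 cells, Nfatc1 was at 68.1 CPM in LR mouse 1 and between 109.0 and 109.9 CPM in the other 3 LR mice, so that its gap to the nearest mouse made up 0.979 of the range of the group. It was 1 of 62 groups of 4 mice tested, and chance flags about 1 in 20 groups.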

How the results depend on the processing

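Of 594 values of the 8 genes between classes under the alternatives, 515 kept their direction and side of the threshold, 40 lost the call, 25 gained it and 14 changed sign. Of 460 LR against PBS values, 433 kept both, 2 gained a call and 25 changed sign. The cause of these changes was not tested.

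For Pdcd1-high against Pdcd1-undetected cells, 5 genes were called, and 3 with thinned cells or with classes set after thinning. Between Pdcd1-high and Pdcd1-low cells 2 were called, and 0 with classes set after thinning, a setting chosen after seeing the data. For the Xcl1 contrast 2 were called, against 1 with DESeq2, 1 with thinned cells, 1 with a Pdcd1 threshold of 5, 5 with no filter, 5 with Scrublet-marked cells kept, and 1 (without LR mouse 4) to 4 (without PBS mouse 8) when a mouse was left out. For Foxp3-positive against CD4 cells 1 was called, against 0 with DESeq2, 0 with Scrublet-marked cells kept and 0 to 1 with a mouse left out. For CD4 against Pdcd1-undetected cells 2 were called, and 4 with library totals. Without the replicate block of the mouse, 1 gene was called there and 1 in the Xcl1 contrast. For LR against PBS mice, 1 gene in Pdcd1-low and 1 in CD4 cells was called with no filter, against 0. Among all genes, edgeR called 1790 and DESeq2 1221 in the Xcl1 contrast. For Foxp3-positive against CD4 cells edgeR called 2082 and DESeq2 1682. For the other alternatives the number of all genes called is not given here, so those counts have no background beside them.

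Log2 values that changed sign were small or imprecise. Nr4a1 in Pdcd1-low against Pdcd1-undetected cells was at -0.0858 with DESeq2, -0.0428 with no filter, -0.0407 with marked cells kept, -0.0125 without the replicate block, -0.16 with classes set after thinning and -0.20 to 0.20 with a mouse left out. Nr4a2 in Foxp3-positive against CD4 cells was at -0.12 with DESeq2, -0.0242 with marked cells kept and -0.17 to 0.21 with a mouse left out. For LR against PBS mice in Pdcd1-undetected cells, Nr4a3 was at 0.04 with DESeq2 and -0.37 to 0.37 with a mouse left out, Nfatc1 at -0.0621 thinned, Nr4a1 at -0.22 to 0.19 and Egr2 at -0.82 to 0.29. In Pdcd1-high cells Nr4a1 was at 0.11 with marked cells kept, 0.0004 at a 5% mitochondrial limit and -0.19 to 0.17 with a mouse left out, and Nr4a2 at -0.19 to 0.0487. In Foxp3-positive cells, leaving out a mouse gave -0.21 to 0.31 for Nr4a1, -0.77 to 0.0474 for Nr4a2 and -0.21 to 0.0443 for Nfatc1, and in all CD8 cells -0.21 to 0.33 for Egr2. The Tox share of Tox and Tox2 UMIs differed by -1.09 to 0.13 points between Foxp3-positive and Pdcd1-high cells with a mouse left out.

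No paired analysis was possible because LR and PBS mice share no replicate numbers. The Xcl1 contrast was not run with cycling cells left out, since too few mice had 10 cells.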

Other observations

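CD8 cells with at least 1 Pdcd1 UMI were also split by Tcf7, the factor of progenitor-like cells, into 546 with and 1287 without a Tcf7 UMI. Nr4a2 was at 188.6 and 253.1 CPM, Tox at 127.3 and 207.1 CPM, Nfatc1 at 115.6 and 173.8 CPM and Nr4a1 at 49.6 and 34.3 CPM, respectively, as means over mice and with no test. In 644 CD8 cells with an Mki67 UMI, Nr4a2 was at 184.9 CPM and Nr4a1 at 27.8 CPM. In 28 cells with 3 or more UMIs of the myeloid gene Lyz2, pooled over mice, Nr4a1 was at 182.6 CPM and Egr2 at 39.5 CPM.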
